A study of Mus musculus with 172 samples.

Results

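Cirbp and Rbm3 encode cold-inducible RNA-binding proteins, small proteins with a single RNA recognition motif and a glycine-rich tail. Both genes were chosen by name, 2 of the 12695 genes listed in cortex as well as in liver of mice of the BXD panel, a set of inbred lines derived from C57BL/6J (B6) and DBA/2J (D2) mice. Their levels were read in 4 tables of expression, for cortex and liver, in undisturbed controls (Ctr) and after sleep deprivation (SD). The questions were how far each gene moved after SD in each tissue, and whether the lines with a larger fall in one tissue or gene also had a larger fall in the other.

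Cold-inducible RNA-binding proteins are known for a level that rises when cells or tissues are mildly cooled and falls when they are warmed, the opposite of the heat shock chaperones. They bind many mRNAs and affect their stability, splicing, choice of polyadenylation site and translation. Cirbp is also known for binding the Clock mRNA and for helping to keep the amplitude of circadian oscillations, and Rbm3 for protecting synapses in cooled brain. In rodents, cortical temperature is higher in wakefulness than in sleep. Temperature was not among the measurements analysed here.

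The study's 156 libraries comprise 39 pools of cortex and of liver, each as Ctr and as SD. Of these pools, 33 are BXD/RwwJ lines, 4 are parental (B6-1, B6-2, D2-1 and D2-2) and 2 are the reciprocal F1 crosses BD-F1 and DB-F1. None carried a transgene or had a drug as a treatment. Per the paper, all mice were anesthetized with isoflurane before killing, and Ctr mice were kept in another room than SD mice. SD lasted 6 h from light onset, and both Ctr and SD mice were killed at that hour (ZT6), at 11 to 14 wk of age and after housing at 25 °C. Equal amounts of RNA of 3 mice were pooled for a library, except for BXD79, BXD85 and BXD101, so that a line has a single library per tissue and condition and the spread between mice of a line cannot be seen. Another 4 lines, labelled BXD/TyJ (BXD05, BXD29, BXD29t and BXD32), make up the 172 libraries in all and were kept apart. The limma p-values rest on the spread between pools, in which lines, mice and cohorts cannot be told apart. In limma, B6 and D2 count with 2 pools each, whereas the permutation tests take the strain as the unit.

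Between 18995492 and 28998853 reads were counted on genes in the libraries of cortex, and between 4681101 and 8269401 in those of liver. The labelled tissues carried their own markers. All 5 markers of cortical neurons were listed in cortex and all 5 of hepatocytes in liver, with 0 of the latter changed by SD. In Ctr pools the neuronal list summed to a median of 12295 CPM in cortex and 65.8 CPM in liver, where only Syt1 was listed. The hepatocyte list summed to 2311 CPM in liver and 0.61 CPM in cortex, where only Cps1 was listed. In liver Ctr pools the mean level of Alb (9.08 log2 CPM) was below that of Cps1 (10.19). A pair of pools stood apart in their response to SD. The slope of a pool's changes on the mean changes, over 1068 other genes that moved by at least 0.5 on the log2 scale in cortex, was 0.27 in BXD89 against a median of 1.04, and the next lowest was 0.72. Over 1026 such genes in liver the slope was 0.51 in BXD50 against a median of 1.00, and the next lowest was 0.74. The results below are therefore also given without these lines.

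In the annotation of mm9, the genome build used for counting, Cirbp lies on chromosome 10 from 79628730 to 79635531 on the plus strand, and Rbm3 on chromosome X from 7716101 to 7723006 on the minus strand. The starts of 2 transcripts of Cirbp are in the RefSeq promoter table, and none of Rbm3 was matched there. The sequence of Cirbp is shown because cold induction of this gene has been traced to a short element with the letters TCCCCGCC, bound by the factor Sp1. The 250 bases before the first start, on the plus strand of GRCm38.p6 (chr10:80167589-80167838), read 5′ to 3′ as follows, with that element in capitals.
Cirbp: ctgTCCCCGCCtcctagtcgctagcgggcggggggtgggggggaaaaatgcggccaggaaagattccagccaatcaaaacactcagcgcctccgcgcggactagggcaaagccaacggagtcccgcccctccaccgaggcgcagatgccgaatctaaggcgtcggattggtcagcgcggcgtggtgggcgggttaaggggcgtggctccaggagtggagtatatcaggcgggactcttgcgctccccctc
The element stood 247 to 240 bases before the start, and the window of the second start did not hold it. Searched on both strands, TCCCCGCC was in 5.38% of the 32851 promoter windows of the table, each of 300 bases. The letters GAANNTTC, a core of the heat shock element, were in 7.86% of these windows, in both windows of the chaperone gene Hsph1 and in neither window of Cirbp. The windows of Hsph1 overlap, and their matches (bases 292 to 299 and 271 to 278) are the same site. It lies beyond the 250 bases before each start. A match of letters is a description and not evidence of binding.

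Reads of the 2 genes were not equally easy to place. The reads were 100 bases long. Of 124 stretches of 100 bases taken along the transcript Rbm3-001, 93 (75.0%) matched another place of the genome as well as they matched Rbm3, and 105 matched elsewhere in at least 95 bases. These copies lie on chromosomes 1, 2, 7 and 13, and 3 of them are annotated as the pseudogenes Gm15453, Gm13624 and Gm10156, none of which is listed in the tables. Over all annotated exons of Rbm3, including retained introns and long ends, 52 of 413 stretches had an equal match elsewhere. Of 123 stretches of the transcript Cirbp-001, 0 did. How the counting treated reads with several equal matches is not given in the sources used here, and its usual setting leaves them out. The Rbm3 values may therefore rest mostly on the parts of the gene without copies, and they are uncertain as a measure of its coding mRNA. For this reason it was not asked which of the 2 genes had the higher level. The comparisons of Rbm3 with Cirbp below, in their changes and over strains, carry the same uncertainty.

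Cirbp fell after SD in cortex and in liver. In cortex, its level in the Ctr pools was 6.17 log2 CPM at the lowest (BXD65a), 6.44 at the median and 6.79 at the highest (BXD90). In the SD pools it was 4.78 at the lowest (BXD66), 5.10 at the median and 5.92 at the highest (BXD89). The groups did not overlap, which was so for 1.4% of the genes listed in cortex. Cirbp fell by 1.24 on the log2 scale (SE 0.042, n = 39 pools per condition, limma adjusted p = 3.36e-42), which left 42.2% of the Ctr level, and it was seen in 39 of 39 pools. In cortex 68.4% of all genes were called in either direction and 35.4% as lower, and 4.68% were lower in every pool. By size of change Cirbp ranked 78 of 14896 genes.

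In liver the fall of Cirbp was larger. Its level was 5.30 log2 CPM at the lowest (DB-F1), 5.68 at the median and 6.01 at the highest (BXD43) in Ctr pools. After SD it was 3.43 at the lowest (BXD66), 4.16 at the median and 4.79 at the highest (BXD50). Here too the groups did not overlap, against 0.121% of the genes listed in liver. Cirbp fell by 1.52 on the log2 scale (SE 0.058, n = 39, limma adjusted p = 1.63e-37), to 34.9% of the Ctr level, again in 39 of 39 pools. In liver 44.2% of all genes were called in either direction and 22.6% as lower, and 1.38% were lower in every pool. Cirbp had the third lowest p-value (rank 3 of 14107 genes) and rank 41 by size of change.

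Rbm3 as counted moved in opposite directions in the tissues. Its values may rest mostly on the parts of the gene without copies, and whether its coding mRNA moved likewise was not tested. In cortex the counted level of Rbm3 rose from 3.57, 3.91 and 4.25 log2 CPM (lowest, median and highest Ctr pool) to 4.31, 4.56 and 4.80 after SD. The highest Ctr pool (BXD89) lay below the lowest SD pool (BXD45). The rise was 0.65 on the log2 scale (SE 0.030, n = 39, limma adjusted p = 2.13e-33), to 157% of the Ctr level, and 39 of 39 pools shared it. In cortex 33% of all genes were called higher, 6.48% were higher in every pool, and 1.4% had Ctr and SD groups that did not overlap. By size of change Rbm3 ranked 586 of 14896.

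In liver the level of Rbm3 was 5.62 log2 CPM at the lowest (BXD56), 6.09 at the median and 6.33 at the highest (BXD81) in Ctr pools. After SD it was 4.62 at the lowest (BXD71), 5.22 at the median and 6.11 at the highest (BXD50). The groups overlapped, since 2 SD pools were above the lowest Ctr pool. Rbm3 fell by 0.86 on the log2 scale (SE 0.051, n = 39, limma adjusted p = 1.49e-25), to 55.2% of the Ctr level, in 38 of 39 pools. The exception was BXD50, whose Rbm3 changed by 0.013. Without BXD50, Rbm3 fell by 0.88 on the log2 scale in liver. Without BXD89, Cirbp fell by 1.27 in cortex.

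**Figure D1:**
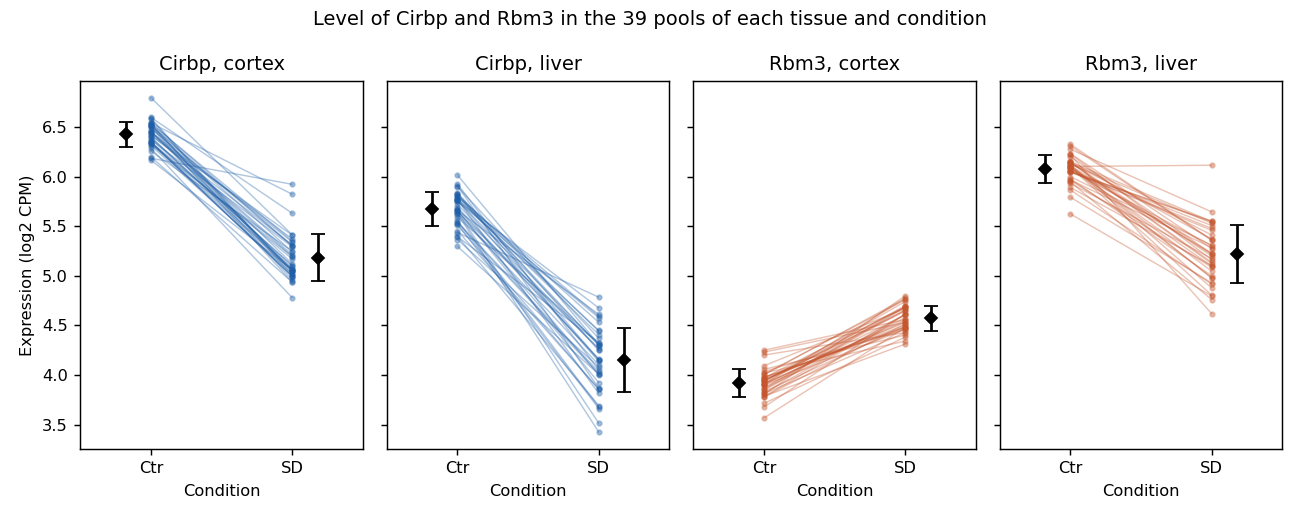
Expression (log2 CPM) of Cirbp and Rbm3 in cortex and liver, with each line joining the Ctr and SD pool of a line (39 per panel) and diamonds with bars for the mean and SD of the pools. Cirbp falls in every pool of both tissues. Rbm3 rises in every pool of cortex (mean 3.92 to 4.57) and falls in 38 of 39 pools of liver (mean 6.08 to 5.22). The Rbm3 values may rest mostly on the parts of the gene without copies.

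The changes of a gene were compared between tissues over the same 39 pools. The Cirbp change was lower in liver than in cortex by 0.27 on the log2 scale (SE 0.056, limma adjusted p = 5.97e-05), in 33 of 39 pools. For Rbm3 the change in liver was lower by 1.51 (SE 0.064, limma adjusted p = 1.41e-21), in 39 of 39 pools. Such a difference between tissues was called for 57.7% of the 12695 genes in common. Genes called higher in cortex and lower in liver, as was Rbm3, made up 4.96% of them, and genes called lower in both, as was Cirbp, 11.9%. Without BXD89 the difference for Cirbp was -0.25, and without BXD50 it was -0.30. The levels themselves were normalized within a tissue and were not tested between tissues.

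Within a tissue the genes differed in their changes. Over 37 strains, with the pools of each parental strain averaged, the Rbm3 change minus the Cirbp change was 1.89 on the log2 scale in cortex (SE 0.059) and above 0 in 37 of 37 strains. In liver it was 0.66 (SE 0.049) and above 0 in 36 of 37. Both had p = 1e-05 in a two-sided sign-flip permutation test, the smallest p that 100000 resamples can give.

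The size of the change varied between pools. In cortex, the Cirbp change ran from -1.58 (D2-2) to -0.26 (BXD89), with a median of -1.28 and an SD of 0.25, and the SD that counting reads alone would give was 0.060. The Rbm3 change in cortex ran from 0.23 (D2-1) to 0.99 (BXD64), with an SD of 0.19 against 0.10 from counting. In liver the Cirbp change ran from -2.20 (BXD66) to -0.65 (BXD50), with an SD of 0.32 against 0.16 from counting. The Rbm3 change there ran from -1.60 (BXD71) to 0.013 (BXD50), with an SD of 0.28 against 0.12 from counting. The spread was thus 1.87 to 4.07 times that of counting. It includes the spread between mice of a line, so it does not show by itself that lines differ. Counting is more precise in cortex for Cirbp, with 1968 reads in the median Ctr pool against 345 in liver. For Rbm3 the median Ctr pool had 345 reads in cortex and 450 in liver, and the median SD pool 553 and 243.

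The parental strains had a second pool each. Per the paper, B6-1 and D2-1 date from the start of data collection and B6-2 and D2-2 from its end. Differences between pools of the same genotype therefore mix time and cohort with repeat variation, which cannot be told apart. In cortex, the Cirbp changes of B6 were -1.34 and -1.36, and those of D2 were -1.46 and -1.58. The Rbm3 changes in cortex were 0.77 and 0.42 in B6, and 0.23 and 0.75 in D2. The 2 D2 pools were thus 0.52 apart for Rbm3, against an SD of 0.19 over all pools. In liver, the Cirbp changes were -1.37 and -1.59 in B6, and -1.88 and -2.13 in D2. The Rbm3 changes in liver were -0.86 and -0.98 in B6, and -1.24 and -0.94 in D2. Both D2 pools had a larger fall of Cirbp than both B6 pools in each tissue, and with 2 pools a strain this was not tested.

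The F1 crosses and the BXD/TyJ lines moved in the same directions. In BD-F1 and DB-F1, Cirbp changed by -1.28 and -1.35 in cortex and by -1.52 and -1.29 in liver. Rbm3 changed by 0.71 and 0.80 in cortex and by -0.95 and -0.59 in liver. In the BXD/TyJ lines BXD05, BXD29, BXD29t and BXD32, the Cirbp changes were -1.81, -1.45, -1.34 and -1.84 in cortex and -2.28, -1.94, -1.48 and -1.58 in liver. Their Rbm3 changes were 0.44, 0.63, 0.67 and 0.88 in cortex and -1.20, -0.51, -0.98 and -0.98 in liver. The Cirbp falls of BXD05 and BXD32 in cortex, and of BXD05 in liver, were larger than that of any of the 39 pools of the study.

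**Figure D2:**
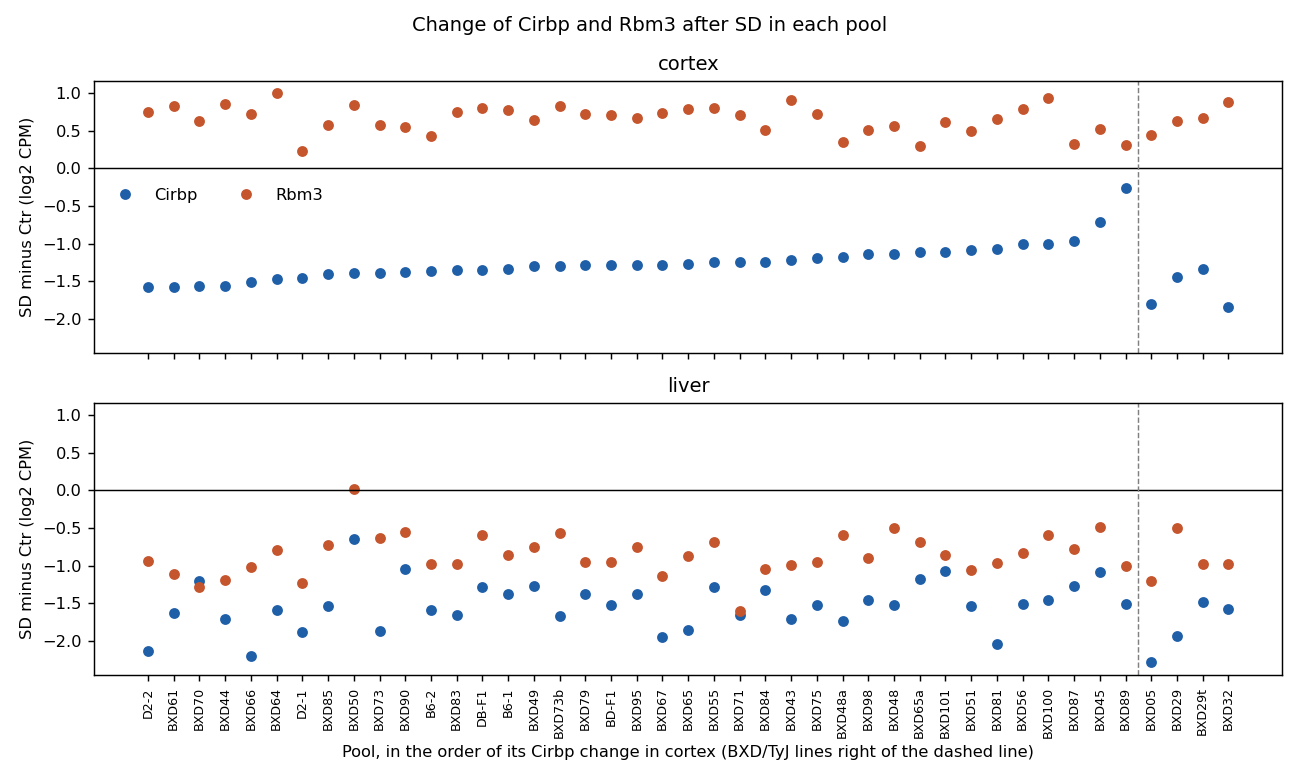
Change after SD (SD minus Ctr, log2 CPM) of Cirbp and Rbm3 in each pool, in cortex (top) and liver (bottom), with pools in the order of their Cirbp change in cortex and the 4 BXD/TyJ lines right of the dashed line. The genes lie on opposite sides of 0 in cortex, and both below 0 in liver except for Rbm3 in BXD50.

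Lines with a larger fall of Cirbp in cortex did not have a detectably larger fall in liver. These relations were computed over the 37 strains, each with a two-sided permutation test, and p-values were adjusted over 22 relations. The strains include 3 sublines (BXD48a, BXD65a and BXD73b) and the 2 F1 crosses of the parental strains, so they are not fully independent units. The correlation of the Cirbp changes of cortex and liver was r = 0.18 (permutation p = 0.28, adjusted p = 0.40; rho = 0.21, adjusted p = 0.31). Without the 2 strains farthest from the median in cortex, BXD89 and BXD45, r was 0.15, and without BXD89 and BXD50 it was 0.34 (adjusted p = 0.10). For Rbm3, r was -0.01 (permutation p = 0.97, adjusted p = 0.97; rho = -0.03, adjusted p = 0.95), and -0.16 without BXD89 and BXD50. Across genes and tissues, r was 0.13 (adjusted p = 0.52; rho = 0.20) for Cirbp in cortex with Rbm3 in liver. It was -0.12 (adjusted p = 0.54; rho = -0.20) for Rbm3 in cortex with Cirbp in liver. Without BXD89 and BXD50 these were 0.38 (adjusted p = 0.058) and -0.25.

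Within a tissue the changes of both genes went together in liver and in opposite directions in cortex. In liver, strains with a larger fall of Cirbp had a larger fall of Rbm3, with r = 0.49 (permutation p = 0.0022, adjusted p = 0.0080; rho = 0.44, adjusted p = 0.023). In cortex, strains with a larger fall of Cirbp had a larger rise of Rbm3, with r = -0.45 (permutation p = 0.0044, adjusted p = 0.014; rho = -0.36, adjusted p = 0.064). Both relations rested on few strains. Without BXD50 and BXD66, the farthest from the median in liver, r was 0.32 (adjusted p = 0.12), and without BXD89 and BXD45 in cortex it was -0.30 (adjusted p = 0.15). Leaving out BXD50 alone gave 0.33 in liver, and leaving out BXD89 alone -0.33 in cortex, neither past the threshold. The changes of both genes in a tissue share their libraries and their scaling. BXD89 in cortex and BXD50 in liver also had the weakest response to SD over other genes. It was not tested if the relations go beyond that strength of response.

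The difference between these correlations was tested by swapping the tissue labels within strains, a test added after the values were seen. The r in liver exceeded that in cortex by 0.95 (two-sided permutation p = 0.0040). Without BXD89 and BXD50 the difference was 0.65 (permutation p = 0.017). The part of a pool's strength of response over all genes in this difference was not tested.

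**Figure D3:**
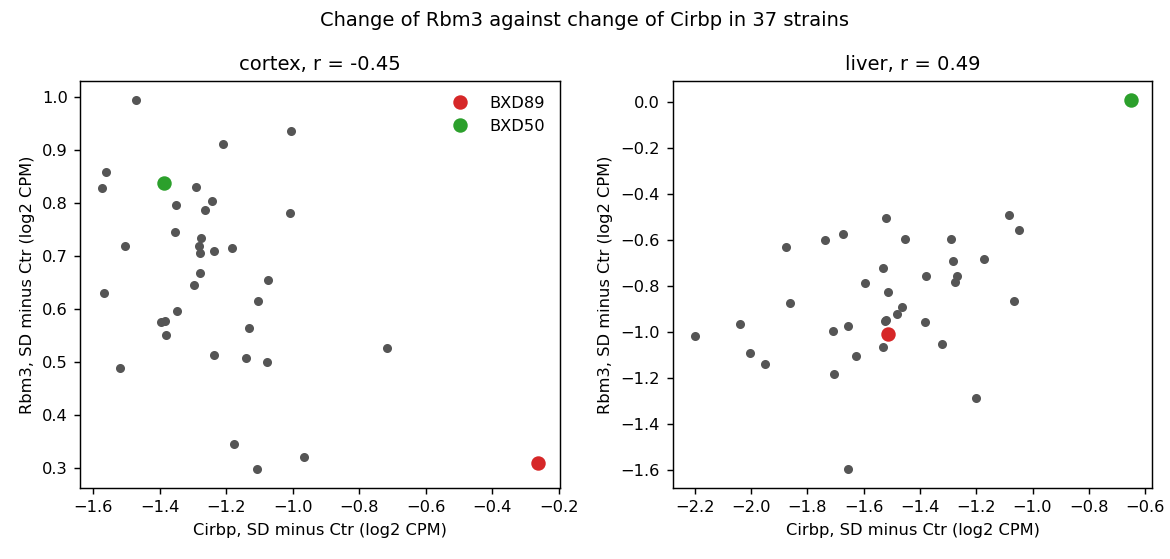
Change of Rbm3 after SD against change of Cirbp (SD minus Ctr, log2 CPM) in cortex and liver, with a point per strain (37 strains). The slope is downward in cortex (r = -0.45) and upward in liver (r = 0.49), and the coloured points, BXD89 and BXD50, lie at the ends of the cloud in cortex and liver, respectively.

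The Cirbp levels after SD were related between tissues. Strains with more Cirbp in cortex after SD also had more in liver after SD, with r = 0.50 (permutation p = 0.0018, adjusted p = 0.0080; rho = 0.50, adjusted p = 0.012). It was 0.48 (adjusted p = 0.013) without BXD89 and BXD45 and 0.60 (adjusted p = 0.0013) without BXD89 and BXD50. In Ctr pools the same correlation was 0.11 (adjusted p = 0.58; rho = 0.15). Whether the SD and Ctr correlations differ was not tested. For Rbm3, cortex and liver gave r = 0.18 in Ctr (adjusted p = 0.40; rho = 0.33) and -0.15 after SD (adjusted p = 0.48; rho = -0.19).

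**Figure D4:**
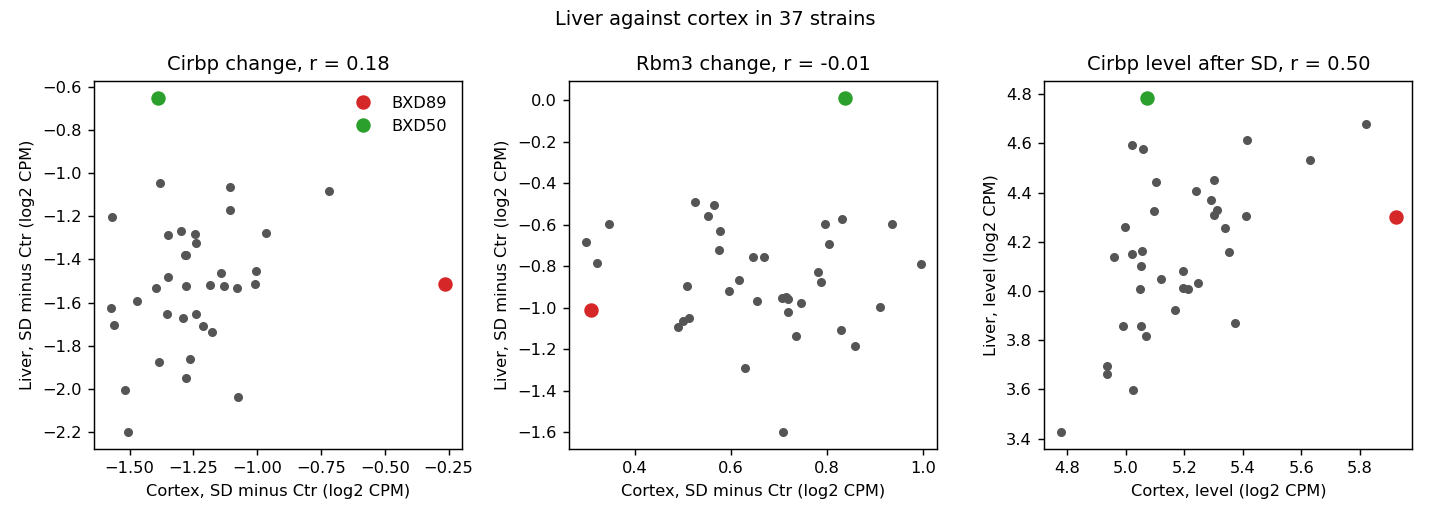
Liver against cortex in 37 strains for the Cirbp change, the Rbm3 change (both SD minus Ctr, log2 CPM) and the Cirbp level after SD (log2 CPM). The changes show little relation between tissues (r = 0.18 and -0.01), whereas the Cirbp levels after SD rise together (r = 0.50), and BXD89 and BXD50 are coloured.

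Levels of Cirbp and Rbm3 were also related within a condition. In liver Ctr pools, r was 0.50 (permutation p = 0.0017, adjusted p = 0.0080; rho = 0.48, adjusted p = 0.012), and 0.53 without DB-F1 and BXD55. In cortex SD pools, r was -0.50 (permutation p = 0.0014, adjusted p = 0.0080; rho = -0.49, adjusted p = 0.012), and -0.48 without BXD89 and BXD45. In cortex Ctr pools r was -0.20 (adjusted p = 0.38; rho = -0.01), and in liver SD pools 0.36 (adjusted p = 0.065; rho = 0.30).

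The Ctr and SD levels of a strain were not detectably related over the 37 strains. For Cirbp, r between Ctr and SD was 0.19 in cortex (adjusted p = 0.40; rho = 0.27) and 0.30 in liver (adjusted p = 0.12; rho = 0.37). Without BXD89 and BXD50 these were 0.45 (adjusted p = 0.027) and 0.41 (adjusted p = 0.046). For Rbm3 they were 0.05 in cortex (adjusted p = 0.81; rho = 0.01) and 0.35 in liver (adjusted p = 0.071; rho = 0.31).

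Hsph1, a chaperone of the heat shock response, was taken as a partner that moves the other way. It was chosen with earlier results of these data known, so the p-values of its relations are not independent support. Its changes share libraries and scaling with those of the members. Whether these relations go beyond the strength of a pool's response over all genes was not tested. It rose by 0.83 in cortex (SE 0.027, limma adjusted p = 1.50e-42) and by 1.31 in liver (SE 0.047, limma adjusted p = 9.46e-39) on the log2 scale. Strains with a larger rise of Hsph1 had a larger fall of Cirbp. In cortex r was -0.79 (permutation p = 1e-05, the smallest possible, adjusted p = 0.00022; rho = -0.63, adjusted p = 0.00055), and -0.68 without BXD89 and BXD45. In liver r was -0.64 (permutation p = 2e-05, adjusted p = 0.00022; rho = -0.62, adjusted p = 0.00055), and -0.56 without BXD50 and BXD66. Both held without BXD89 and BXD50 (-0.71 in cortex and -0.54 in liver). For Rbm3, r with Hsph1 was 0.38 in cortex (permutation p = 0.018, adjusted p = 0.044; rho = 0.39, adjusted p = 0.052) and -0.45 in liver (permutation p = 0.0051, adjusted p = 0.014; rho = -0.44, adjusted p = 0.023). These fell to 0.27 and -0.25 without BXD89 and BXD50, with adjusted p = 0.18 and 0.21, respectively.

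Genes were ranked by how like their change per strain was to that of each member, as a description without a test. In cortex the genes most like Cirbp, of 13581, were Parn (r = 0.82), which encodes a poly(A)-specific ribonuclease, Abhd16a (0.72) and Hnrnpdl (0.71), an RNA-binding protein. They had mean changes of -0.54, -0.33 and -0.42 on the log2 scale. Without BXD89 and BXD50, Parn was still ranked 1 (0.68), Abhd16a 14 and Hnrnpdl 36. Hsph1 was at the very end of the list, with and without these lines. Rbm3 was ranked 13043.

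In cortex the genes most like Rbm3 were Clk1 (r = 0.72), a kinase of splicing factors whose own splicing is known to depend on temperature, Mat2a (0.71), which makes S-adenosylmethionine and whose transcript is known for a regulated retained intron, and Dnase1l2 (0.67). They had mean changes of 0.30, 0.50 and 1.13. Without BXD89 and BXD50 their ranks were 1, 3 and 5. Cirbp was ranked 13491 of 13581.

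In liver the genes most like Cirbp, of 12734, were Pqlc2 (r = 0.74), a lysosomal transporter of cationic amino acids, Tmem110 (0.69) and Rab24 (0.67), and Rbm3 was ranked 87. Their mean changes were -0.45, -0.20 and -0.22. Those most like Rbm3 were Ffar4 (0.59), a receptor for long-chain fatty acids, Angptl2 (0.58) and Wfdc15b (0.58), and Cirbp was ranked 22. Angptl2 changed by -0.24, whereas Ffar4 (0.59, limma adjusted p = 0.099) and Wfdc15b (-0.32, limma adjusted p = 0.38) were not called. Without BXD89 and BXD50 the ranks of Pqlc2, Tmem110 and Rab24 for Cirbp were 1, 9 and 7, and those of Ffar4, Angptl2 and Wfdc15b for Rbm3 were 23, 1 and 15. Without these lines, Rbm3 was ranked 597 for Cirbp, and Cirbp 307 for Rbm3.

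The lists below are read against all genes, of which 33% were called higher and 35.4% lower in cortex, and 21.5% higher and 22.6% lower in liver. The lists were chosen with earlier results of these data known, so their counts are a description and not independent support. The genes of the heat shock list rose in both tissues. Of 20 listed, 20 were called higher in cortex, with a median change of 0.39 on the log2 scale against -0.01 for all genes, and 20 in liver, with a median of 0.45 against -0.002. The largest rises in cortex were those of Hspb1 (1.49), a small chaperone, Hspa1b (1.35), an inducible member of the 70 kDa family, and Hsph1. In liver they were those of Hspa1b (1.74), Hspa1a (1.69) and Hspb1 (1.40). Hspa1a and Hspa1b are near-identical copies, and their reads may be split between them.

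Genes with a cold shock domain, a fold unrelated to the RNA recognition motif, changed in both directions. In cortex 4 of 7 listed were called higher and 1 lower, with a median of 0.13, among them Csdc2 (0.37), Ybx1 (0.16), which packages mRNAs, and Ybx2 (-0.39). In liver 1 of 5 was called higher, Ybx3 (0.18), and 1 lower, Carhsp1 (-0.14), with a median of 0.0015, shares near those of all genes in liver. Of a list of other genes with a single RNA recognition motif, 1 of 4 was called higher in cortex and 3 lower, with a median of -0.13. How closely these genes are related to the members was not tested. Rbm11, a splicing regulator, fell by 0.88, Rbm7, a cofactor of the RNA exosome, fell by 0.16, and Rbmxl1 rose by 0.13. In liver Rbmx, a splicing regulator, fell by 0.58, Rbmxl1 rose by 0.19, and the other of 3 listed was not called, with a median of 0.040.

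Splicing factors of the SR family and their Clk kinases rose more often in cortex than they fell. Of 17 listed there, 13 were called higher and 3 lower, with a median of 0.12. The largest changes were those of Tra2a (0.66), a splicing activator that regulates its own transcript, Srsf10 (0.35) and Srsf7 (0.33). In liver, 5 of 16 were called higher and 6 lower, with a median of -0.006, against 21.5% and 22.6% of all genes. Tra2a rose by 0.88, whereas Srsf2 and Srsf3 fell by 0.38 and 0.29.

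Of 7 genes reported as regulators or targets of the members, 4 were called higher and 2 lower in cortex (median 0.24), and 3 higher and 1 lower in liver (median 0.039), with 33% and 35.4% of all genes in cortex and 21.5% and 22.6% in liver. Per2, a repressor of the circadian clock, rose by 1.01 in cortex and 0.34 in liver. Hnrnph1, a splicing factor, rose by 0.53 and 0.24, and Clock, an activator of the clock, by 0.26 and 0.17. Sp1, the factor named with the promoter of Cirbp, changed by 0.039 in cortex (adjusted p = 0.16 in limma) and by 0.021 in liver (adjusted p = 0.67), and was not called in either.

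**Figure D5:**
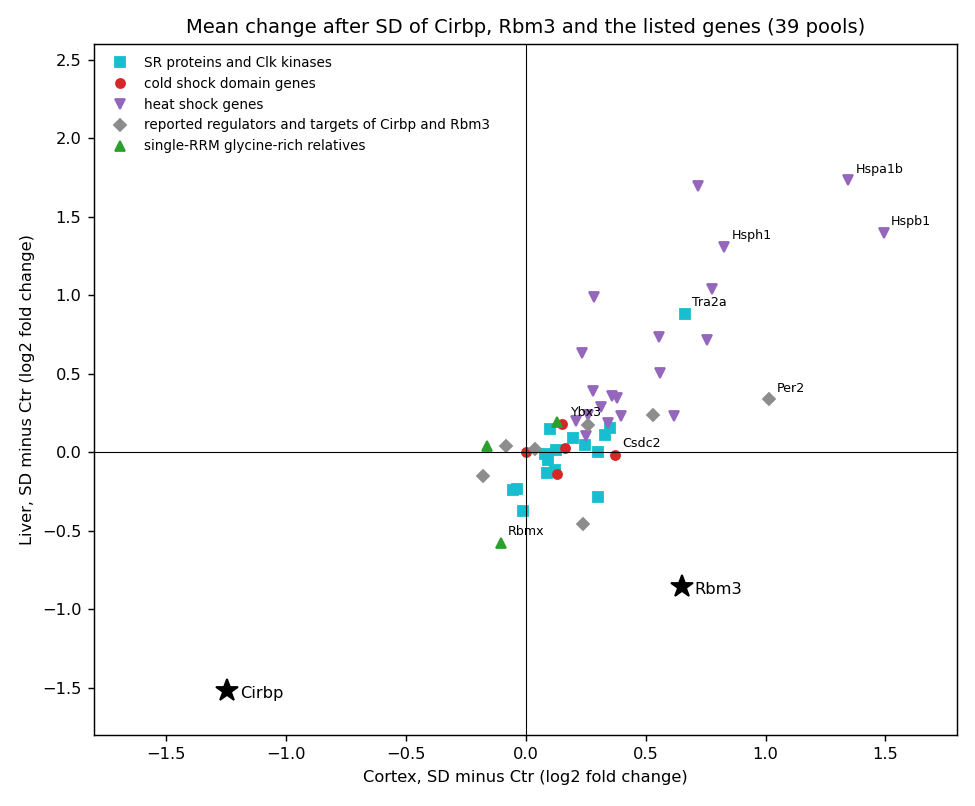
Mean change after SD (log2 fold change over 39 pools) in liver against cortex for Cirbp and Rbm3 (stars) and for the genes of the 5 lists. Cirbp lies at the lower left with larger falls in both tissues than any listed gene, Rbm3 at the lower right (0.65 and -0.86), and the heat shock genes at the upper right.

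Markers of other cells were read beside these results. In liver, 4 of 4 B cell markers were called lower after SD, and their summed level went from 6.44 to 26.4 CPM in Ctr pools to 2.30 to 12.7 CPM in SD pools. Their part in the liver results was not tested, and in bulk tissue fewer cells of a type and less RNA per cell cannot be told apart. Syt1, the single neuronal marker listed in liver, was called lower there (-0.82), and Cps1, the single hepatocyte marker listed in cortex, was called lower in cortex (-0.51) at a summed median of 0.61 CPM in Ctr and 0.42 CPM in SD pools. Their part in the results was not tested. In cortex, 2 of 5 neuronal markers were called lower (Syt1 by -0.16 and Slc17a7 by -0.12), and the sum of the list ranged from 11465 to 13058 CPM in Ctr and from 11166 to 13113 CPM in SD pools. Pituitary markers, with 2 of 4 listed in cortex and 0 called, reached a summed 59.9 CPM in a Ctr pool against a median of 1.15. For choroid plexus 0 of 3 listed in cortex and 0 of 1 in liver were called, and for the erythroid list 0 of 1 in each tissue. Of the exocrine pancreas list, 1 of 2 was called in cortex, Cela1 (-0.48), and 0 of 1 in liver.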

How the data were processed

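The values are log2 CPM as deposited. Per the paper's methods, the authors made stranded mRNA libraries from pooled RNA. STAR served to align the single-end reads on mm9 and htseq-count (reverse strand, union mode) to count them over RefSeq gene models. Genes with a low mean count were left out, and the authors normalized the counts with edgeR (TMM) before the log2 CPM were taken. No removal of duplicates is named. Undoing the scaling gave whole reads, within 0.02, for 100% of values, and 0 columns lacked a sample. Here SD and Ctr pools were compared with limma 3.58.1 in R 4.3.3 (lmFit, eBayes with trend, no block) over all genes of a tissue, with a Benjamini-Hochberg adjusted p under 0.05. Tissues were compared on the per-pool changes. Relations over 37 strains used permutation tests with 100000 resamples in numpy 2.4.6, and both tests were tested on simulated data. The alternatives are the other scalings, weights, filters and sets of pools named in the closing section.

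Ctr and SD pools of a line pair by design, since they are of the same inbred line or F1 cross. After each gene's condition mean was taken off, pools of the same line correlated in cortex with a minimum of 0.299 and a median of 0.614, and in liver with a minimum of 0.169 and a median of 0.475 (different lines: medians of -0.020 and -0.018). The genes named are Cirbp and Rbm3, Hsph1 as a partner, the 3 genes most like each member among those whose mean log2 CPM reached 0 in Ctr and in SD, and, from each of 5 lists, at most the 3 called genes with the largest change. Sp1, the copies of Rbm3 and the cell markers named were added after their values were seen. Members, lists, tests and alternatives were chosen with earlier results of these data known. Sequence matches were made to NCBIM37 (mm9) with minimap2 2.31, and exons come from GENCODE vM1. The RefSeq promoter table is of GRCm38.p6.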

Additional observations from a re-analysis of the deposited data

Results flagged for a closer look

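The change after SD differed between cortex and liver for both genes in limma's test over 39 pools, by -0.27 for Cirbp and -1.51 for Rbm3 (liver minus cortex, log2 scale). The r between the Cirbp and Rbm3 changes over strains was higher in liver than in cortex by 0.95. Among the 4 BXD/TyJ lines, the Cirbp level of BXD32 in liver Ctr (5.54 log2 CPM) lay far below the other 3 (5.84, 5.85 and 5.90). It was singled out from 12 groups of 4 values, of which chance would single out about 1 in 20. In the 39 study pools of liver Ctr, Cirbp ran from 5.30 to 6.01 log2 CPM, with a median of 5.68. The value of BXD32 lay within this range.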

How the results depend on the processing

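The changes of both genes in both tissues, their differences between tissues and the differences between the genes kept their direction and stayed past the threshold in 90 of 90 alternatives over these 8 results: another scaling (median-centred or quantile), voom weights, no trend, a filter at a mean log2 CPM of 0, and other sets of pools. In the paired fit, with a replicate block for lines, the changes were -1.24 (adjusted p = 1.77e-31) and 0.65 (9.60e-25) for Cirbp and Rbm3 in cortex, and -1.52 (4.97e-28) and -0.86 (1.38e-21) in liver. The block changed no call on the members, and it raised the number of called genes in cortex from 10191 to 11359, in liver from 6229 to 7603. Some alternatives could not move an estimate: the block, the trend and the filter for any change, and median-centring for the difference between the genes. None of them altered how reads with several equal matches were counted, so they leave the uncertainty of the Rbm3 values as it was.

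The 6 relations between changes kept their direction and side in 45 of 60 alternatives. For Cirbp and Rbm3 in cortex, r was -0.38 on linear CPM (adjusted p = 0.051), -0.32 without BXD89 and BXD50, -0.30 without the farthest strains, and between -0.52 and -0.33 leaving out a strain at a time. In liver, r was 0.34 without BXD89 and BXD50, 0.32 without the farthest strains, and between 0.33 and 0.57 leaving out a strain at a time. For Rbm3 in cortex and liver, r near 0 turned positive in median-centred libraries (4.1e-05), on linear CPM (0.099), with the BXD/TyJ lines (0.013), without BXD79, BXD85 and BXD101 (0.0035) and without sublines and F1 (0.040), and lay between -0.12 and 0.042 leaving out a strain at a time. On linear CPM, r also turned for Cirbp in cortex and liver (-0.10) and for Rbm3 in cortex with Cirbp in liver (0.13). None of these turned values passed the threshold, and the cause was not tested. The relation of Rbm3 with Hsph1 in cortex missed the threshold in median-centred libraries (r = 0.34, adjusted p = 0.077). Leaving out BXD89 and BXD50 and centring the 16 other relations were chosen after seeing the data. With liver depth of 4681101 to 8269401 reads, counting alone gives Cirbp changes an SD of 0.16.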
